A study of Mus musculus with 4 samples.

Results

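The array held 20679 probes designed from NONCODE, a public collection of noncoding transcripts, beside 40628 probes for genes, and the NONCODE probes are described here. A NONCODE probe was kept when its signal was called well above the local background on at least 2 of 4 arrays, which left 7735 of 20679 (37.4%). The same rule kept 24036 of 40628 gene probes (59.2%), so 31771 of 61307 probes were tested together. The arrays compared chemically transformed C3H10T1/2 cells without treatment (2 arrays) and after 0.25 mM diethyl maleate (DEM), an electrophile that depletes glutathione (2 arrays).

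C3H10T1/2 is a mouse embryo fibroblast line. All 4 samples carry the same history: 2 days of 3MC, also written MCA (the carcinogen 3-methylcholanthrene, 2.5 µg/ml), 2 weeks of the phorbol ester TPA (100 ng/ml) and 4 weeks in normal medium before the arrays. How long DEM was applied is not stated in the labels. Nor do they say that the 2 replicates of a group were grown apart, and a p-value then covers only the spread of these 4 RNA samples, possibly a technical spread. Untransformed cells are not analysed here. All 4 arrays lay on 1 slide, the untreated arrays in its first row and the DEM arrays in its second, and row and treatment cannot be told apart.

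Long noncoding RNAs are transcripts without a long open reading frame. Many are spliced and polyadenylated like messenger RNA, some are read from the opposite strand of a gene's start, and some, such as Neat1 and Malat1, stay in the nucleus. NONCODE took many mouse entries from large collections of full-length cDNA clones. The RNA here was copied from an oligo-dT primer, so a transcript without a poly(A) tail or an internal run of A was poorly placed to be measured. Of the 20632 NONCODE probes without an outlier flag, 20615 carry the label mRNA-like and 17 do not. Probes are named below by the u number in their file name, followed by the n number where several probes share a u number. What these numbers stand for, and where in the genome the probes lie, is not stated in the labels or file headers.

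Each probe is 60 bases long. The probes below are shown because the largest differences were read with them: u204552/n210627 and u190918 rose with DEM, and u203087 and u202669 fell.
u204552/n210627: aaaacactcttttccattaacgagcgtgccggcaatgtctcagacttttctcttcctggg
u190918: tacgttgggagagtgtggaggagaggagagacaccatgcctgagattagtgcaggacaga
u203087: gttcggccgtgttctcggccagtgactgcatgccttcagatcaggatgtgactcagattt
u202669: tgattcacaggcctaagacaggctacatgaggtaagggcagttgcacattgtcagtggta

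Overlapping probes gave a check within the members. The capitals mark the 47 bases that 2 probes of u178319 share, and then the 58 bases that 2 probes of u199094 share. Both pairs are among the probes with the largest differences.
u178319/n179273: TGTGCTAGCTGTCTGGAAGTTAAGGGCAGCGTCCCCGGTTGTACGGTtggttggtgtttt
u178319/n179275: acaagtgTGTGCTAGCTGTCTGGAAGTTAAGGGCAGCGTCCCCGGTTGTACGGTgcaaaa
u199094: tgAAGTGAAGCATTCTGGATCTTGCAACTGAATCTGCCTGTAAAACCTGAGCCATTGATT
u199094/n204015: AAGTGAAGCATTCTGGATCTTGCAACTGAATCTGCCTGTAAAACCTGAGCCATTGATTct

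The 5 brightest members looked alike. Capitals mark the 11 bases that all 5 contain, and the letters around them are of the kind known from the B1 family of short interspersed repeats, which lies in many mouse transcripts.
u187080: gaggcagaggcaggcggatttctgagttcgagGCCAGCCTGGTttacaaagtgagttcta
u186812/n189338: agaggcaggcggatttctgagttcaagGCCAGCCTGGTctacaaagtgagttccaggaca
u180449: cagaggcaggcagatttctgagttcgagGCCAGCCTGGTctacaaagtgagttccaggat
u187618: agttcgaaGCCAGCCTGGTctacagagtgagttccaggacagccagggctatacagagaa
u178881: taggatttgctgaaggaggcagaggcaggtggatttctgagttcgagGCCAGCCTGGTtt

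On each array a smaller share of the NONCODE probes than of the gene probes was well above background. For NONCODE probes the share was 37.6% and 38.6% without treatment and 35.4% and 33.8% with DEM. For gene probes it was 59.6% and 59.9% without treatment and 56.1% and 54.9% with DEM. Both shares were lower on both DEM arrays. The difference for NONCODE probes was -3.56 percentage points (exact permutation test, two-sided, p = 0.333, n = 2 per group, the smallest p that 2 against 2 allows). Levels are given as the log2 signal minus the array's 75th percentile over non-control probes, so 0 is a probe at that percentile. The percentile itself stood at 701 and 747 signal units without treatment and at 449.9 and 412 with DEM. The kept NONCODE probes had a median level of -2.28 (interquartile range -3.60 to -0.18), against 0.50 for the kept gene probes. The levels of the kept NONCODE probes correlated across probes at 0.980 between the untreated arrays, 0.969 between the DEM arrays and 0.925 to 0.944 between groups. These are correlations across probes within these arrays, and probes are not replicates.

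The labels were checked on genes with a known response to electrophiles. Hmox1, Nqo1, Gclm, Srxn1, Txnrd1 and Slc7a11 all rose, by 2.36 (Txnrd1) to 7.12 (Slc7a11) on the log2 scale. Of 12 fibroblast markers 12 were kept, while 0 of 3 endothelial, 0 of 3 muscle and 0 of 3 neural markers were. The summed fibroblast marker level was 10.62 to 10.67 without treatment and 9.77 to 10.3 with DEM. Of 5 epithelial markers 2 were kept (Krt8, Krt5), with a summed level of all 5 from -2.40 to -2.15 over the 4 arrays. Of 3 adipocyte markers Fabp4 was kept, and the summed level of these 3 was 2.40 to 2.74 untreated and 2.66 to 2.94 with DEM. In bulk samples fewer cells of a type and less RNA per cell cannot be told apart.

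With DEM, many more NONCODE probes rose than fell. At an adjusted p under 0.05 (limma, Benjamini-Hochberg over all 31771 probes), 988 of 7735 NONCODE probes rose (12.8%) where 14.6% of all tested probes did, and 411 fell (5.31%) where 12.2% of all tested probes did. The remaining 6336 did not pass. Gene probes rose and fell in nearly equal number, 3650 (15.2%) and 3459 (14.4%). With a change of at least 2-fold as well, 655 NONCODE probes rose (8.47%, against 8.27% of all tested probes) and 357 fell (4.62%, against 10.1%). Both DEM arrays lay above both untreated arrays for 3610 NONCODE probes (46.7%, against 40.4% of all tested probes) and below both for 1433 (18.5%, against 27.5%). Thus the share that rose was near that of all probes, and the share that fell was below it.

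The direction of the whole set depended on the scale. The median NONCODE difference, DEM minus untreated, was 0.24 on the log2 scale (interquartile range -0.18 to 0.60), and that of gene probes was 0.09. Probes well above background on no array, which carry little or no signal, had a median difference of 0.59 in both kinds (11387 NONCODE and 14753 gene probes). These dim probes sat near a floor in the signal while the 75th percentile was lower on the DEM arrays, and the part of this shift in the members' differences was not tested. Scaling to the spike-in RNA moved the median over all probes from 0.13 to -0.24, and then 209 NONCODE probes rose and 300 fell. Rises made up 70.6% of NONCODE calls in the main setting, 41.1% with spike-in scaling, 54.1% with the percentile taken over probes above background on 4 arrays and 57.9% with cyclic loess. With normexp background correction 2587 rose and 317 fell. The share of rises among NONCODE calls was then 89.1%. For gene probes the share of rises was lower in each of these 5 settings, at 51.3% (main), 15.8% (spike-in), 37.6% (percentile over 4 arrays), 36.1% (cyclic loess) and 61.6% (normexp).

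The 4 arrays did not weigh equally in the counts. Without the first untreated array 201 NONCODE probes rose and 70 fell, and without the second 138 rose and 71 fell. Without the first DEM array 1266 rose and 713 fell, and without the second 1482 rose and 717 fell. The DEM arrays differed more from each other than the untreated arrays did. The SD of the difference between the 2 arrays over kept NONCODE probes was 0.70 with DEM and 0.55 without. Of the 988 probes that rose, 60.4% were higher on the first DEM array than on the second, against 53.1% of all kept NONCODE probes.

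Some members could only move one way. Of the kept NONCODE probes, 6132 were well above background on 4 of 4 arrays, and of these 811 rose and 246 fell. Another 517 were kept through the untreated arrays alone and 145 through the DEM arrays alone, and 140 and 126 of them were called. Their direction was largely set by the rule. Both DEM arrays lay above both untreated arrays for 14 of the 517 and for all 145. No count over those probes bears on the direction of the members. Among gene probes, 1321 were kept through the untreated arrays alone and 163 through the DEM arrays alone.

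NONCODE probes are dimmer than gene probes, so the kinds were compared at equal brightness. The kept NONCODE probes were cut into 10 bins of nearly equal size by their mean level over 4 arrays, and gene probes in each bin were weighted to the NONCODE bin sizes. On that footing 11.2% of gene probes rose and 17.9% fell, against 12.8% and 5.31% of NONCODE probes. The difference was 1.55 percentage points for rises and -12.6 for falls. The shares of rises ran close together from the second bin (6.21% NONCODE, 6.29% gene) to the brightest (25.5% and 23.5%). In the dimmest bin they were 12.7% and 7.44%. The shares of falls were apart in every bin, from 11% against 36.3% in the dimmest bin to 4.01% against 6.70% in the brightest. In the dimmest bin only 0.26% of NONCODE and 0.33% of gene probes were above background on 4 arrays. These shares, and the difference of -12.6, include probes kept through 1 group alone, whose direction the rule largely set. Among probes above background on 4 of 4 arrays, binned anew, 4.01% of NONCODE and 11.3% of gene probes fell.

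**Figure D1:**
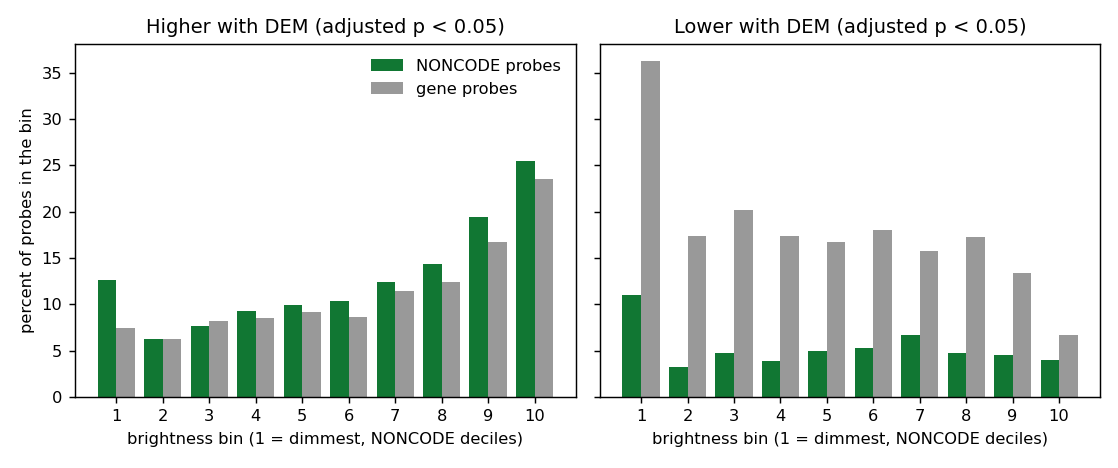
Percent of NONCODE (green) and gene (grey) probes called higher (left) or lower (right) with DEM, in 10 bins of mean level cut at the NONCODE deciles, with bin 1 the dimmest. In the right panel the grey bar stands above the green bar in each of the 10 bins, and in the left panel the bars rise together to 25.5% and 23.5%.

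Over arrays, the same gap was seen as a level. At equal brightness the NONCODE level minus the gene probe level was -0.19 and -0.16 untreated and 0.18 and 0.12 with DEM. Brightness was matched on the mean level over these same arrays, so a negative value in either group forces a positive value in the other. The signs therefore do not show which kind was brighter in a group, and only the difference between the groups is informative. That difference includes probes kept through the untreated arrays alone or the DEM arrays alone, whose direction the rule largely set. The groups did not overlap and differed by 0.33 on the log2 scale (exact permutation test, two-sided, p = 0.333, n = 2 per group, the smallest possible). The fewer falls were not shared by gene probes that RefSeq lists as long noncoding RNA. Of 395 such kept probes 51 rose (12.9%) and 68 fell (17.2%), and weighted to the NONCODE brightness 16.2% fell. Of 1999 probes for pseudogenes 364 rose (18.2%) and 103 fell (5.15%), but these were far brighter, with a median level of 4.43. The split by RefSeq class was added after values were seen, and no test was made between the classes.

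**Figure D2:**
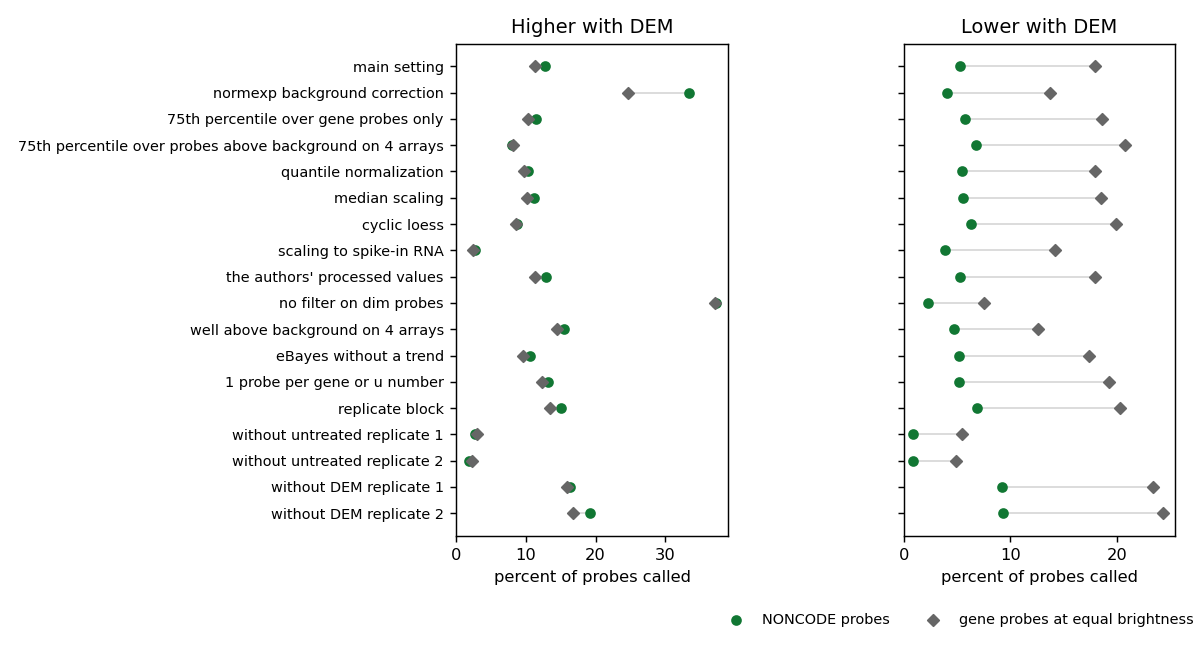
Percent of NONCODE probes (green circles) and of gene probes at equal brightness (grey diamonds) called higher (left) or lower (right) with DEM, in the main setting and under 17 alternatives. The circle lies left of the diamond in every row of the right panel, while in the left panel the marks lie at most 2.43 percentage points apart except with normexp.

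The largest rise among members measured on all 4 arrays was that of u204552/n210627. Its level was -2.62 and -2.89 untreated and 1.38 and 0.59 with DEM, a rise of 3.74 ± 0.32 (SE) on the log2 scale, or 13.3-fold (limma, adjusted p = 0.0015). Both DEM arrays lay far above both untreated arrays. The overlapping probes u178319/n179273 and u178319/n179275 were also among the 10 largest rises. u178319/n179273 was at -3.16 and -2.81 untreated and 0.91 and 0.30 with DEM (rise 3.59 ± 0.29, limma adjusted p = 0.0014). u178319/n179275 was at -3.38 and -3.03 untreated and 0.56 and -0.15 with DEM (rise 3.41 ± 0.31, limma adjusted p = 0.0019). The pair shares most of its letters, so the 2 values are repeat readings of 1 sequence. For u190918 the level went from -2.87 and -3.26 to 0.59 and 0.28, a rise of 3.50 ± 0.26 with the groups well apart. The level of u192892 was -2.10 and -2.44 untreated and 1.71 and 0.64 with DEM, a rise of 3.45 ± 0.37.

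The other 5 of the 10 largest rises were u192450, u191768, u201781, u196558 and u203065, with rises of 3.25 to 3.37 on the log2 scale. Their DEM arrays did not sit close together. u192450 was at -2.76 and -2.88 untreated but at 1.52 and -0.43 with DEM, and u191768 at -2.19 and -2.56 untreated but at 1.98 and -0.09 with DEM. For u203065 the untreated levels were -3.83 and -4.08 and the DEM levels 0.30 and -1.71. In all 3 the first DEM array was the high one. Leaving out either untreated array ended the call for these 3 (highest limma adjusted p = 0.064, 0.076 and 0.078), while the rises stayed above 2.12.

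The largest fall was that of u203087, from 1.50 and 1.48 untreated to -3.12 and -2.30 with DEM. It fell by 4.20 ± 0.31 on the log2 scale, to a level 18.4-fold lower (limma, adjusted p = 0.0011). u202669 fell by 3.78 ± 0.25, from 0.60 and 0.45 to -3.06 and -3.46. Both probes were above the 75th percentile in untreated cells and among the dimmer members with DEM. The overlapping probes of u199094 fell together, one from 0.92 and 1.12 to -2.01 and -1.81 (by 2.93 ± 0.21) and u199094/n204015 from 0.68 and 0.75 to -2.21 and -2.0 (by 2.82 ± 0.21). u202580 fell by 2.95 ± 0.26, from -0.86 and -0.81 to -3.62 and -3.95. u178626/n179648 fell by 2.91 ± 0.27, from 1.50 and 1.44 to -1.78 and -1.10. The remaining 4 of the 10 largest falls, u194932, u180456/n181741, u199098 and u196163, lay between -2.65 and -2.41. Without either untreated array u199098 and u196163 no longer passed (highest limma adjusted p = 0.073 and 0.074).

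**Figure D3:**
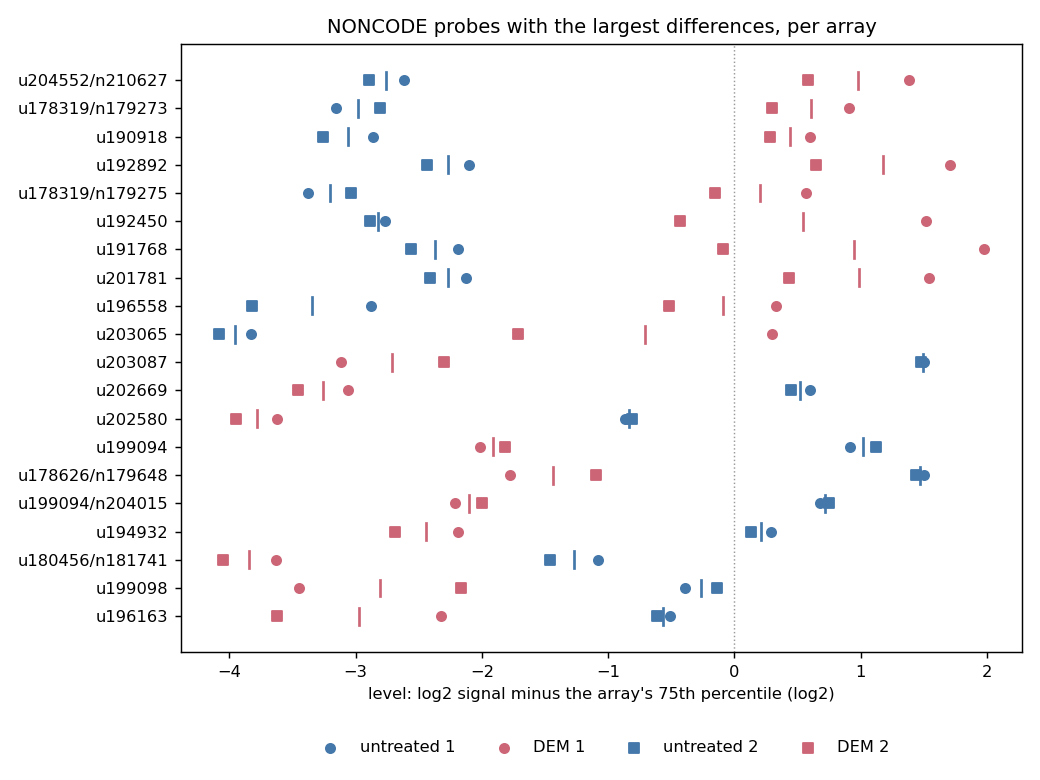
Level on each array (log2 signal minus the array's 75th percentile) of the 10 NONCODE probes with the largest rises and the 10 with the largest falls among those above background on all 4 arrays. Circles and squares are the first and second array of a group, blue is untreated, red is DEM, and short vertical lines are group means. Blue and red do not overlap in any row, which the choice of rows required, and u192450, u191768 and u203065 show the widest red pairs.

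Members below background in 1 group gave bounds. They were kept through the other group alone, so their direction was largely set by the rule. u185787 was not well above background on either untreated array (-7.04 and -6.90) and stood at -0.98 and -1.17 with DEM, at least 13.3-fold higher. The bound for u201016/n206222 was at least 15.8-fold higher, but its DEM levels were -2.18 and 0.52. That of u203284/n209026 was at least 8.82-fold higher, with DEM levels of -3.15 and -0.19. Neither kept its call without the second untreated array, nor did u203284/n209026 without the first. In the other direction u195981 was at 0.07 and -0.38 untreated and not well above background with DEM (-4.89 and -6.38), at least 16.7-fold lower. u187878 was at -0.31 and -0.47 untreated and at -5.40 and -4.70 with DEM, at least 14.2-fold lower, and u204752/n210877 was at least 6.47-fold lower. Each bound sets the bright group's mean against a ceiling for the dim group. On each dim array that ceiling was the lowest level called well above background there, or the probe's measured level if that was higher.

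The repeat-like brightest members rose slightly and on all arrays alike. u187080 was at 9.06 and 9.03 untreated and 9.84 and 9.77 with DEM, a rise of 0.76 ± 0.12 on the log2 scale (limma, adjusted p = 0.0085). u186812/n189338, u180449 and u178881 rose by 0.69, 0.69 and 0.76, and u187618 by 0.47. These calls rest on the scaling. Under quantile normalization the difference of u187618 turned to -0.13, and the others lost their calls. All 5 calls were lost under cyclic loess and spike-in scaling. Besides quantile normalization, 8 settings ended the call of u187618, normexp and median scaling among them. The 11 shared bases occur in 19 of 20632 NONCODE probes (0.0921%) and in 0 of 40545 gene probes, both counted without outlier flags. Of the 19, 18 were kept, with levels from -4.08 to 9.42 (median 8.41), and 16 were called higher and 0 lower. Over all tested probes 14.6% were called higher, and in the brightest NONCODE bin 25.5%. The median difference of the 18 was 0.70 on the log2 scale. The 5 brightest, from which the shared bases were taken, are among the 18. The reverse complement of these bases occurs in 25 NONCODE probes, of which 20 were kept, with a median level of -0.67. One such 60-base sequence can bind many transcripts, so these levels are not those of single genes.

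Sharing letters went with brightness over all members. Of the kept probes 6560 shared no run of 25 bases with another NONCODE probe, and their median level was -2.53, with 11.7% higher and 5.27% lower. The 155 that shared such a run with 11 to 52 other probes had a median level of 4.66, with 29.0% higher and 5.16% lower. The number of cDNA clones listed for a probe went the same way. Probes with at most 1 clone (4469) had a median level of -2.82, and 11.3% rose and 5.68% fell. Probes with 6 to 10 clones (637) had a median level of 0.30, and 19.5% rose and 2.35% fell. Brightness itself moves with the share of rises, as the bins show, and its part here was not tested.

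Pairs of kept probes that overlap each other by at least 25 bases, and overlap no other NONCODE probe, numbered 313. The differences within a pair were close, with a median gap of 0.12 on the log2 scale and a 90th percentile of 0.58. In 49 pairs both probes were called, 49 of them in the same direction, and in 35 pairs 1 probe was called. Probes that only share a u number were another matter. u204552 had 22 kept of 36 probes, with differences from -0.80 to 3.74 and 4 called higher. u186108 had 19 kept of 43, from -0.95 to 1.21, with 1 called higher and 1 lower. u181746 had 15 kept of 40, from -1.15 to 1.87, with 2 called in each direction. Of 657 u numbers with several kept probes, 461 had all probes on the same side of 0, called or not, so a u number was not treated as a single transcript.

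Some NONCODE probes read the RNA of a known gene. Of the kept probes, 26 shared at least 25 bases with a kept gene probe on the same strand. Taking the longest overlap for each, the median gap between the 2 differences was 0.09 on the log2 scale, and the call was the same for 26 of 26 (7 called). u184281 rose by 1.20 and the probe for Ptbp3, a splicing regulator, by 1.25. Both calls were lost with spike-in scaling and did not hold in every fit that left out 1 array. The difference was 0.37 for u194589/n198573 and 0.38 for Ccdc59, and 0.33 for u194673/n198662 and 0.36 for Hmgb1, a chromatin protein, none of them called. The members u178790 and u202401 fell by 1.51 and 1.15, and they share letters with a family of near-identical predicted genes, which the arrays cannot tell apart. Neither call held in every fit that left out 1 array. That of u202401 was also lost with normexp, with spike-in scaling and without a filter.

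The starts of genes were searched because noncoding transcripts often begin there on the other strand. All 60 bases of 568 NONCODE probes matched a RefSeq window (GRCm38.p6) from 250 bases before to 50 after a gene's start, in 32851 windows. Of these probes 16 matched several places and were left out. Of the others 439 lay on the strand opposite to the gene and 125 on the same strand, with some counted under both. Of the opposite-strand probes 177 were kept (40.3%), 28 rose (15.8%) and 4 fell (2.26%). Over all tested probes 14.6% rose and 12.2% fell, and over kept NONCODE probes 12.8% and 5.31%, so the share of rises was near those shares. Some of these calls, u198786 among them, were of probes kept through 1 group alone. Of the same-strand probes 65 were kept, 9 rose (13.8%) and 6 fell (9.23%). Where 2 genes start back to back, a probe opposite to one may be on the strand of the other. The probes below lie opposite to Orc2, Cox20, Gadd45a and Alkbh5. These and the pairs named in the next paragraph were chosen after their values were seen. The first of them, u178319/n179273, is printed above and lies at chr1:58505183-58505242 on the plus strand. The next lies at chr1:178318977-178319036 on the minus strand, the third at chr6:67037442-67037501 on the plus strand and the last at chr11:60537596-60537655 on the minus strand (GRCm38.p6).
u179565: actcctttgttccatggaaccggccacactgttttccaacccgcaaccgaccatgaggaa
u187937/n190708: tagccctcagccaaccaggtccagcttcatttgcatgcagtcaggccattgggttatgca
u195621: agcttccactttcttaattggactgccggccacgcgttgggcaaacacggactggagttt

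The probe and its gene did not always move together. Orc2 encodes a subunit of the origin recognition complex. Its own probe was at 0.96 and 0.99 untreated and 2.15 and 1.99 with DEM, a rise of 1.09 ± 0.18, beside 3.59 for the opposite-strand probe. Cox20, an assembly factor of cytochrome oxidase, was at 2.84 and 3.15 untreated and 2.25 and 2.76 with DEM (difference -0.49, limma adjusted p = 0.17), while u179565 went from -3.59 and -3.99 to -0.78 and -1.0, a rise of 2.90 ± 0.27. Gadd45a, a stress-induced growth arrest gene, rose by 2.51 ± 0.31 and u187937/n190708 by 1.40 ± 0.27. Alkbh5, an RNA demethylase, rose by 1.32 ± 0.20 and u195621 by 1.75 ± 0.27. Lrrc49 and u192586 rose by 1.31 and 2.00. u189714 rose by 2.05 where the probe for Pde8a, a cyclic nucleotide phosphodiesterase, differed by -0.02 (limma, adjusted p = 0.95). Going down, Arsb, a lysosomal sulfatase, fell by 2.44. The probe beside it, u198786, was at -3.45 and -2.54 untreated and not well above background with DEM (-5.94 and -4.61). It was kept through the untreated arrays alone, so its direction was largely set by the rule and no fold is given. Its call was lost with normexp and without a filter. u194868 fell by 2.50 while Mars1, a methionyl-tRNA synthetase, rose by 0.64, a rise that 8 of the other scalings and fits did not call. On the same strand, u184266 rose by 1.68 at the start of Svep1, whose own probe fell by 1.86. Without 1 or the other untreated array the probes at Gadd45a, Alkbh5, Arsb, Lrrc49, Pde8a and Mars1 no longer passed (limma, adjusted p from 0.051 to 0.18), nor did u184266 at Svep1, while the NONCODE probes at Orc2 and Cox20 passed in every setting run. Spike-in scaling also ended the calls of the opposite-strand probes at Gadd45a, Alkbh5, Lrrc49 and Pde8a, of u184266, and of the gene probes for Orc2, Alkbh5 and Lrrc49.

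Across the 125 opposite-strand pairs with a kept gene probe, the NONCODE probe was the dimmer signal in 117, though probes of different sequence give no exact ratio. The differences of the pairs correlated at 0.087 across pairs, a description over pairs that share 4 arrays. In 9 pairs both probes were called, 7 in the same direction. Among the 7 are the pairs at Arsb and Qtrt1. Their NONCODE probes were kept through 1 group alone, so the rule largely set the direction. The NONCODE probe alone was called in 17, the gene probe alone in 30 and neither in 69. The same windows were searched for TGACNNNGC, the core of the antioxidant response element bound by NRF2, on both strands. It was in 4071 of 32851 windows (12.4%), in 22 of the 171 genes with a kept opposite-strand probe (12.9%) and in 3 of the 26 genes whose opposite-strand probe rose (Etaa1, Gm26611 and Slc44a2). Some of the 26, Gm26611 and Qtrt1 among them, have a probe kept through the DEM arrays alone, so the rule largely set its direction.

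**Figure D4:**
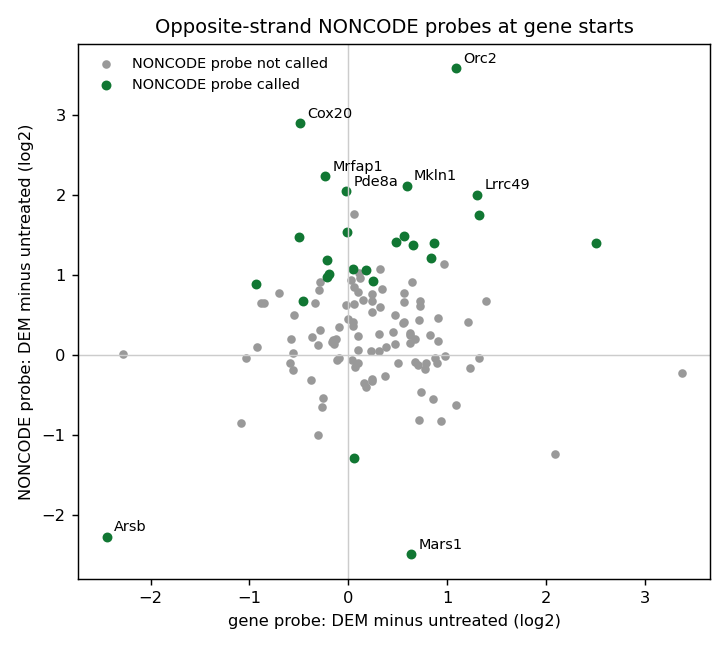
Difference with DEM (log2, DEM minus untreated) of 125 opposite-strand NONCODE probes (vertical) against that of the probe for the gene whose start they lie at (horizontal). Green points are NONCODE probes called at adjusted p under 0.05, grey points are not called, and named points differ by more than 2. The points show little relation, with Cox20 and Orc2 at the top on either side of 0 for the gene.

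Only 17 NONCODE probes carry the name of a known noncoding RNA, and 7 were kept. They are given whole because they are the members that can be recognised, and were chosen after values were seen. A snoRNA probe, u4946, was at -1.17 and -1.73 untreated and -0.30 and 0.79 with DEM, a rise of 1.70 ± 0.40 (limma, adjusted p = 0.027), lost with spike-in scaling and without either untreated array. No other kept one passed. The probe for SRA, a steroid receptor RNA activator, was at 2.63 and 2.72 untreated and 2.36 and 2.35 with DEM. The Hoxa antisense probe was at -3.57 and -3.66 untreated and -4.50 and -4.36 with DEM (difference -0.82, limma adjusted p = 0.10). The GNAS1 antisense probe u2116 differed by -0.02. The probe labelled H19, whose description names deer mice, differed by 0.70 (limma, adjusted p = 0.089), and those for BC1, a small brain RNA, whose descriptions name a California mouse and a deer mouse, by 0.07 and 0.18. The other 10, among them probes for Tsix, bic and BORG, were not kept.

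Well-known long noncoding RNA genes are covered by gene probes, and a list of 78 names was set beside the members. Of these names 53 had a probe and 39 were kept, 12 rose, 5 fell and 22 did not pass, with a median difference of 0.27 against 0.13 over all probes tested. Among the falls was Tsix, at -3.79 and -3.60 untreated and not well above background with DEM (-4.99 on both arrays). It was kept through the untreated arrays alone, so its direction was largely set by the rule. Its call was lost with normexp, with spike-in scaling and without a filter. With the filter of 4 arrays 4 falls remained. Each gene is given by its brightest kept probe. Neat1, the scaffold of nuclear paraspeckles, was at 3.49 and 3.89 untreated and 5.44 and 5.86 with DEM, a rise of 1.97 ± 0.22 on the log2 scale (limma, adjusted p = 0.0033). Malat1, a nuclear speckle RNA, rose by 1.54 ± 0.22, from 4.91 and 4.82 to 6.10 and 6.71, though its 4 probes ran from 0.06 to 1.54 and 2 were called. Neat1 kept its call in every setting run, and Malat1 lost it with spike-in scaling and without the second untreated array (limma, adjusted p = 0.051). The genes named Snhg, which host small nucleolar RNAs, made up 12 of the kept genes, of which 7 rose and 1 fell (over all tested probes 14.6% rose and 12.2% fell). All 8 of these calls were lost with spike-in scaling. Gas5 and Zfas1, host genes under other names, differed by 1.03 and -0.14 and did not pass (limma, adjusted p = 0.064 and 0.52). Snhg20 went from 3.14 and 3.22 to 4.52 and 4.58 (rise 1.37 ± 0.16), and Snhg3 from 3.12 and 3.32 to 4.44 and 4.47 (rise 1.23 ± 0.17). Snhg8 fell by 1.14 ± 0.19, from 3.42 and 3.55 to 2.17 and 2.52.

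Apart from Snhg8, the falls were of genes not named Snhg. Airn, the imprinted antisense RNA of Igf2r, fell by 1.85 ± 0.24, from 0.57 and 0.23 to -1.61 and -1.30, with 4 of its 5 probes called lower and the other one not called (0.34). Xist, the RNA that coats the silent X chromosome, fell by 1.16 ± 0.21, from 3.74 and 3.51 to 2.67 and 2.26, with 3 of 4 probes called. Dnm3os, host of a microRNA cluster, fell by 1.19 ± 0.21 from 0.17 and 0.00 to -1.13 and -1.07. Airn, Xist, Dnm3os and Snhg8 each had groups that did not overlap. Without 1 untreated array, the calls of Snhg8, Xist and Dnm3os ended for either array and that of Airn for the first (limma, adjusted p = 0.052). The call of Snhg3 also ended without the first. Those of Snhg1, Snhg9, Snhg15, Snhg16, Snhg17, Dleu2, Rmrp, Rpph1 and Tsix were each lost in 2 of the fits that left out 1 array. Neat1 and Snhg20 kept theirs in every such fit. Spike-in scaling left 2 of the 12 rises and 2 of the 5 falls.

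**Figure D5:**
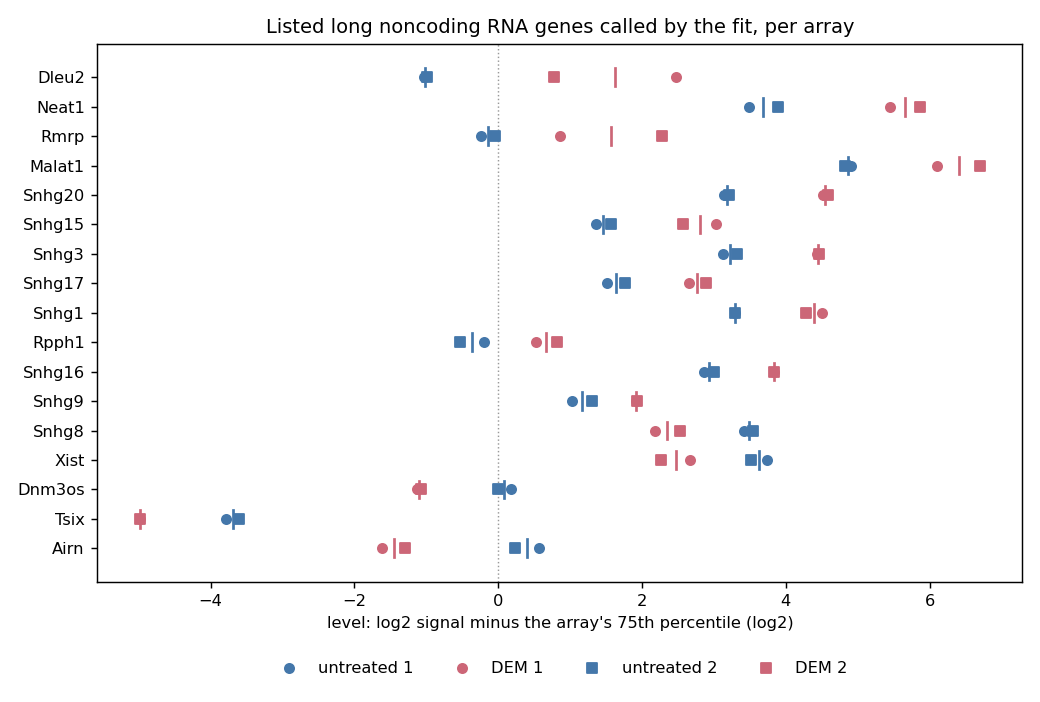
Level on each array (log2 signal minus the array's 75th percentile) of the 17 listed long noncoding RNA genes called at adjusted p under 0.05, by brightest kept probe, ordered by difference. Circles and squares are the first and second array of a group, blue untreated and red DEM, with short lines at group means. Dleu2 and Rmrp have the widest DEM pairs, and the 5 lowest rows, Snhg8 to Airn, have DEM left of untreated. Tsix was kept through the untreated arrays alone, so its direction was largely set by the rule.

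The members were narrower in base composition than the gene probes. Their GC content ran from 30% to 53.3% with a median of 50%, against a median of 43.3% for kept gene probes, which ran from 15% to 85%. GC content and the difference with DEM correlated at 0.082 across kept NONCODE probes. The polyadenylation signal AATAAA was in 2.47% of kept NONCODE probes and 8.42% of kept gene probes, read on the probe's strand only. Whether a probe's distance from the end of its transcript had a part in the results was not tested.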

How the data were processed

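One-colour (Cy3) Agilent arrays measured total RNA of 2 untreated and 2 DEM-treated samples. Signal intensity per spot was background-subtracted by Agilent Feature Extraction 10.7.3.1 (protocol GE1_107_Sep09), per the file headers. The authors also deposited a table of log2 values; over 99.9% of these lay within 0.01 of log2 intensity minus the array's 75th percentile. That scaling was the main setting here. Spots of a probe were averaged, and 130 probes with an outlier flag (47 NONCODE) were left out. Only the calls of "well above background" in the files set the filter of 2 arrays. Differences were fitted in limma 3.58.1 (R 4.3.3, lmFit and eBayes with a trend, 2 residual degrees of freedom, prior 4.16) over all 31771 kept probes, with Benjamini-Hochberg adjustment; ± is the SE of that fit. Probe sequences are those of the files, matched exactly to RefSeq promoter windows (GRCm38.p6). The number of arrays limits the precision. Gene probes were named through RefSeq for 34635 probes and kept the file's name for 5910. A further list of cell type markers, beyond those in the text, is not reported here.

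The members and lists were chosen with earlier results of these data known. The probes named are the 10 largest rises and falls above background on all 4 arrays and at least 2-fold, 3 bounds each way, the 5 brightest, the 3 u numbers with most probes, and the 4 smallest p-values each way among listed long noncoding RNA genes; others are named as chosen after values were seen. Alternatives were normexp (offset 50), other percentiles, median, quantile, cyclic loess and spike-in scaling, the authors' table, other filters, no trend, 1 probe per gene, a replicate block, and leaving out each array.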

Additional observations from a re-analysis of the deposited data

How the results depend on the processing

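Differences from gene probes at equal brightness kept their sign for falls and for the median under every alternative run. For falls (main -12.6 percentage points) the values were -9.57 with normexp, -13.9 with the percentile over probes above background on 4 arrays, -13.6 with cyclic loess, -10.3 with spike-in scaling, -5.25 without a filter, -7.93 with the filter of 4 arrays, -14.0 with 1 probe per gene, -13.3 with the replicate block and -15.0 to -3.97 leaving out 1 array. For rises (main 1.55) they were 8.73 with normexp, -0.071 with the percentile over 4 arrays, 0.60 with quantile, 0.073 with cyclic loess, 0.29 with spike-in scaling, 0.16 without a filter and -0.46 to 2.43 leaving out 1 array (-0.39 and -0.46 without the first and second untreated array), so the excess of rises had no stable sign. The median gap (main 0.31) was 0.15 with normexp, 0.14 without a filter, 0.17 with the filter of 4 arrays, 0.27 with 1 probe per gene and 0.28 to 0.36 leaving out 1 array.

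NONCODE rises (main 988) numbered 2587 with normexp, 621 with the percentile over 4 arrays, 209 with spike-in scaling, 7692 without a filter and 138 to 1482 leaving out 1 array, and falls (main 411) 70 to 717. Gene rises (main 3650) numbered 450 with spike-in scaling, 13141 without a filter and 685 to 4977 leaving out 1 array, and gene falls 973 to 4766. Listed long noncoding RNA genes gave 2 rises and 2 falls with spike-in scaling, and 3 to 15 rises and 0 to 8 falls leaving out 1 array. The causes were not tested. With the replicate block 1158 NONCODE probes rose and 535 fell; same-numbered samples share only a number (deviations correlated at 0.11 across kept NONCODE probes). Of 102 named probes that were called, 46 kept their call under every scaling, filter and fit run and 54 lost it with spike-in scaling. u187618 turned to -0.13 with quantile normalization. All 20 largest rises and falls kept their calls under every setting run except 5 without an untreated array. Dim signal limits the members: 883 were above background on 2 arrays.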

Other observations

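There were 23 pairs of kept NONCODE probes in which each overlaps only the other on the opposite strand by at least 25 bases. The median gap between the levels of a pair was 4.56 on the log2 scale, but the probes of a pair share only part of their letters, so these levels do not show which strand is read more. At least 1 probe was called in 10 pairs and both in 3. u181135 and u202692/n208316 rose by 1.05 and 0.68, and u183364/n185246 and u203079 by 0.82 and 0.51. These 4 calls were lost with spike-in scaling and without either untreated array. In the remaining pair the strands parted: u185955/n188237 rose by 0.63 and u193556/n197328 fell by 0.70 (limma, adjusted p = 0.035 and 0.030), and spike-in scaling and either leave-out of an untreated array ended both calls.

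Of the kept NONCODE probes, 7 lay opposite to a kept gene probe, with 1 pair called on both sides: u199311 rose by 0.81 and the probe for LOC100046404 fell by 2.24 (limma, adjusted p = 0.037 and 0.0069), with the call of u199311 lost under 6 of the other scalings and fits and without either untreated array. The probe u204609 differed by -0.51 where Taf6l, a subunit of a histone acetyltransferase complex, rose by 1.01, a call lost with spike-in scaling and without either untreated array, and u199328 differed by 1.24 (limma, adjusted p = 0.092) where Zmiz1 differed by -0.34. These pairs were chosen after their values were seen.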
